A study of Mus musculus with 6 samples.

Results

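Pdgfra, Kit and Kdr encode receptor tyrosine kinases and lie side by side on mouse chromosome 5. The accessible regions assigned to these 3 genes are described here from ATAC-seq, an assay in which the transposase Tn5 cuts and tags DNA where chromatin is open. The regions were those on chromosome 5 (mm10) whose nearest protein-coding gene within 100 kb was one of the 3. This rule used position and no measured value, but the genes were chosen with earlier results of these data known. The FM list held 81 such peaks of 205844 in all, and the KO list 37 of 139164. These merged into 92 regions of 239675 in all, 37 at Pdgfra, 25 at Kit and 30 at Kdr.

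The series set induced cells against knockout cells, both of them mouse epiblast stem cells differentiated in serum as embryoid bodies for 2 days. In the induced group, Mixl1-inducible lines received 1 µg/mL of doxycycline during 24 h (3 libraries). The other group was Mixl1 KO (3 libraries). Sample titles name doxycycline for the induced group alone, but all 6 samples carry one treatment text, which speaks of inducible lines, so whether the knockout cells held the construct or received doxycycline is not stated. Each library came from 50000 cells with 11 PCR cycles, and before differentiation the cells were kept on irradiated mouse embryonic fibroblasts with bFGF and Activin A. What Mixl1, doxycycline or the difference between the lines contributed cannot be told apart, peaks do not show whether the gene was deleted, and the labels name neither the promoter of the inducible construct nor the number of clones. Each group is represented by 1 deposited peak list. The KO list carries its group's name, while FM is explained by no label and was paired with the induced group as the one left over. FM and KO below stand for these lists. There is therefore no spread between replicates for any value below, and differences are described without a test. The labels call the libraries triplicates and do not name separate cultures. Shares carry exact binomial (Clopper-Pearson) 95% intervals that cover the counting of regions only. In bulk samples a region open in fewer cells and one less open in every cell cannot be told apart.

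Receptors of this kind bind a secreted ligand outside the cell, dimerise and phosphorylate tyrosines on themselves and on signalling proteins inside it. PDGFRA binds platelet-derived growth factors and marks paraxial and cardiac mesoderm in differentiating pluripotent cells. KIT binds stem cell factor and is used, with CXCR4, to sort definitive endoderm, and it acts in germ cells, pigment cells and blood progenitors. KDR is a receptor for vascular endothelial growth factor and marks lateral mesoderm and the progenitors of blood and vessels. Mixl1 is a paired-class homeodomain transcription factor of the primitive streak, where the precursors of mesoderm and definitive endoderm form. Accessibility is not expression, and no RNA was used here.

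The promoter sequences are shown because the genes differed in whether a peak lay over them. RefSeq sequences of GRCm38.p6, which is mm10, matched all 3 genes, and each window runs from 250 bases before to 50 bases after an annotated start. The Pdgfra window is chr5:75152001-75152300 on the plus strand, the Kit window chr5:75574737-75575036 on the plus strand and the Kdr window chr5:75978406-75978705 on the minus strand. Capitals mark the matches described after the sequences, on either strand, and the E-box and TAAT matches near the end of the Pdgfra window adjoin each other.
Pdgfra: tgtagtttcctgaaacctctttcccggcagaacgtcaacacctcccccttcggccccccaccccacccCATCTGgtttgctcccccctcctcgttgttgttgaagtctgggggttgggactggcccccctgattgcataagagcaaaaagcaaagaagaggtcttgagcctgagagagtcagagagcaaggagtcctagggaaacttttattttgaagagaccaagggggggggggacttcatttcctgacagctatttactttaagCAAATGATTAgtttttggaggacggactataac
Kit: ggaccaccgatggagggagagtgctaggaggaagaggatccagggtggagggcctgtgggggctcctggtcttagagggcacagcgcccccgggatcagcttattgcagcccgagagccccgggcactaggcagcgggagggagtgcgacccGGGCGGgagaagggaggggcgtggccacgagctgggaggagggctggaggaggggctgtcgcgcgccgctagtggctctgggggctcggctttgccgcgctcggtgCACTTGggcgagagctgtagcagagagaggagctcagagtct
Kdr: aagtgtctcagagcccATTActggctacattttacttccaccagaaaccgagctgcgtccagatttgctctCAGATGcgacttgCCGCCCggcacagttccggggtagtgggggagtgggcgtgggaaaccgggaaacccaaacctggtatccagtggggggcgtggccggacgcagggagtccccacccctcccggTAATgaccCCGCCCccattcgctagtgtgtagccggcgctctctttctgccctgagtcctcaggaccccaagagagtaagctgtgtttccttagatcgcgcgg

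The Kit and Kdr windows each overlapped a peak of each list. The Pdgfra window, placed at the first listed of several starts, overlapped a peak of neither list. The nearest peaks lay 1.83 kb (FM) and 0.57 kb (KO) away, and this KO peak lies over an earlier start of the gene. Of the promoter windows of 17492 protein-coding genes, 63.0% overlapped a peak of both lists and 31.4% overlapped none. The Kit window had the highest G and C content, 69.0% with 20 CG pairs, and stood at percentile 86.1 of these promoters. The Kdr window had 60.7% with 19 CG pairs, and the Pdgfra window 51.0% with 5 CG pairs, at percentile 33.1. The median promoter had 56.3%.

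The letters searched for were the palindrome of TAAT and ATTA with 3 or 2 bases of any kind between, which paired-class homeodomain dimers bind, its core TAAT, the GATA factor letters AGATA or TGATA followed by A or G, the E-box CANNTG, the SP factor letters GGGCGG, and the core promoter letters TATAAA and CCAAT. Both strands were searched, and TAAT also lies within both forms of the palindrome. TAAT was found at position 24 of Pdgfra and at positions -53 and -234 of Kdr, counted from the annotated start, and 52.5% of all promoters held it. GGGCGG was found at position -98 of Kit and at positions -166 and -45 of Kdr, with 46.3% of promoters holding it. The E-box was found at all 3 genes, at positions -182 and 18 of Pdgfra, 9 of Kit and -179 of Kdr, and in 68.8% of promoters. The palindromes, held by 0.383% (3 bases between) and 0.343% (2 bases between) of promoters, the GATA letters (26.7%), TATAAA (13.3%) and CCAAT (39.0%) had no match in these windows. Such matches describe letters and not binding.

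For each peak the deposited fold enrichment compares the fragments piled up at the summit with a local background. Fold and p-value together gave that pileup and that background, and all 118 pileups came out as whole numbers within 0.02. On chromosome 5 the lowest backgrounds, taken as the genome-wide level, were 28.6 fragments in FM and 28.8 in KO. Pileups of the lists can be set side by side only if both were called with the same fragment extension, a setting not given in the sources used here. Values of -log10 q are the authors' peak caller's own and were used within a list.

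Of the 92 regions, 55 were only in the FM list, 11 only in the KO list and 26 shared, a region being shared where peaks of both lists overlapped by at least 1 bp. Over all regions 43.6% were only in the FM list, 16.0% only in the KO list and 40.5% shared. The FM list thus held 83.3% of the regions in 1 list only at the receptor genes (interval 72.1 to 91.4). Over all regions this share was 73.2%, which the interval holds. The share was 71.4% at Pdgfra (47.8 to 88.7), 88.9% at Kit (65.3 to 98.6) and 88.9% at Kdr (70.8 to 97.6). The 3 intervals overlap, and each holds the 73.2%. At 18 flanking protein-coding genes within 1 Mb it was 85.1% (79.5 to 89.6), and this interval overlaps that of the receptor genes. On chromosome 5 as a whole it was 77.9%.

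**Figure D1:**
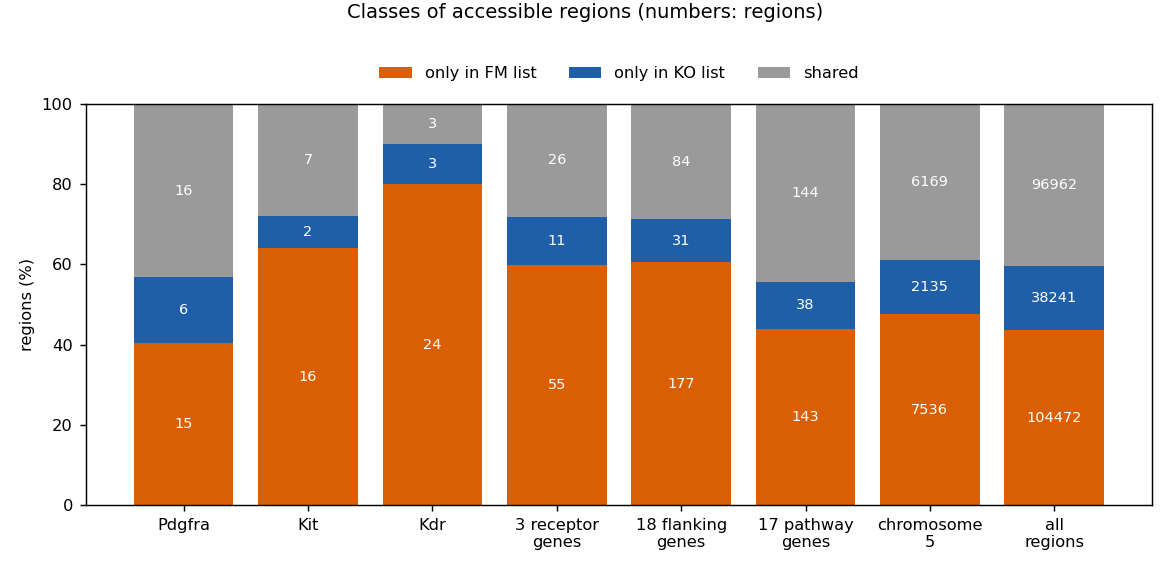
Share of regions, in percent, that were only in the FM list (orange), only in the KO list (blue) or shared (grey) at Pdgfra, Kit, Kdr, the 3 genes together, 18 flanking genes, 17 pathway genes, chromosome 5 and all regions, with the number of regions in each bar. Kdr had 24 regions only in the FM list of 30, and the FM share of regions in 1 list only was 83.3% at the 3 genes and 85.1% at the flanking genes.

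Taking 50000 peaks of lowest p from each list moved the split most. At the receptor genes 4 regions were then only in the FM list and 7 only in the KO list, a share of 36.4% (10.9 to 69.2), against 50.6% over regions assigned to all genes. Where both lists were limited to peaks past a -log10 q of 5, 22 regions were only in FM and 8 only in KO, or 73.3% (54.1 to 87.7), against 72.7% over all genes, and FM still held more of the regions while the gap to all genes was small. In either setting a region can count as being in 1 list only although the other deposited list holds a peak there that ranks lower.

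The start of Kit carried the strongest accessible region of the gene. Its FM peak spanned 75574358 to 75576042 with 239 fragments at the summit (95% Poisson interval 210 to 271), and its KO peak spanned 75574336 to 75576395 with 244 (214 to 277). Folds were 4.97 in FM and 4.98 in KO over local backgrounds of 47.3 and 48.2 fragments. The counting intervals overlap over nearly their whole length. These intervals cover counting error only, since fragments multiplied by PCR are not independent molecules. Among the 96962 shared regions, ranked by fold within each list, the region stood at percentile 96.1 in FM and 93.1 in KO. The KO peak held 5 summits and the FM peak 2.

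The start of Kdr was also accessible in both lists. The FM peak spanned 75977653 to 75978973 with 163 fragments at the summit (139 to 190) and a fold of 4.33, and the KO peak spanned 75977627 to 75978944 with 180 (155 to 208) and a fold of 5.54. The pileup intervals overlap, and the local background differed as well, at 36.9 fragments in FM and 31.7 in KO. The region stood at percentile 93.8 in FM and 94.8 in KO. A smaller shared region followed upstream, from 75979055 to 75979356, with 69 fragments in FM and 66 in KO. Its percentile was 19.4 in FM and 41.5 in KO, over backgrounds of 37.5 and 32.5 fragments.

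Pdgfra differed from the other two genes in the shape of its start. No peak lay over the promoter window at the first listed start, 75152251, but peaks lay on both sides of it within 5 kb, 4 in FM and 6 in KO. A peak only in the KO list lay over the earlier start of the gene, 75151322. The strongest region of the gene lay inside it, with its FM peak at 75155641 to 75156975 and 250 fragments at the summit (220 to 283), 4.13 kb after the start. The KO peak at 75155640 to 75156992 had 262 fragments (231 to 296). More fragments piled up at these summits than at the start of Kit, but the folds were only 3.27 in FM and 3.33 in KO. The local backgrounds were 75.8 fragments in FM and 78.0 in KO, and the fold divides by them.

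This high background extended across the start of Pdgfra. Peaks within 5 kb of the start had local backgrounds of 48.4 to 76.9 fragments in the FM list and 52.7 to 83.1 in the KO list. The highest were 2.69 times the genome-wide level in the FM list and 2.88 times in the KO list, whereas the highest at Kit were 1.66 and 1.67 times and at Kdr 1.48 and 1.23 times. Of all peaks on chromosome 5, 95% had backgrounds under 76.2 fragments in FM and 69.4 in KO, and 1 FM peak and 3 KO peaks at Pdgfra exceeded these levels.

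**Figure D2:**
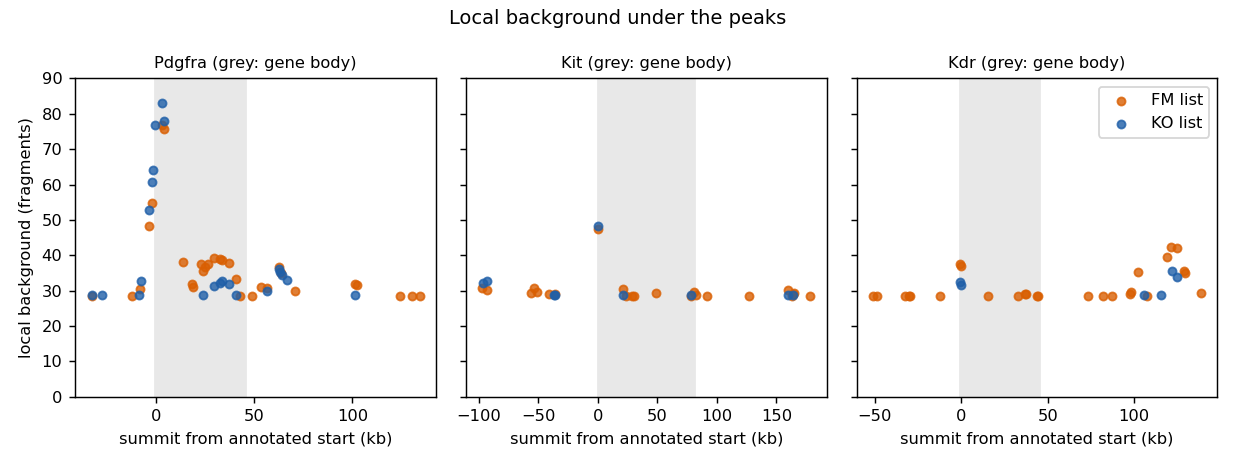
Local background in fragments at the summit of each peak (y axis) against the distance of the summit from the annotated start in kb (x axis) for Pdgfra, Kit and Kdr, with FM peaks in orange, KO peaks in blue and the gene body in grey. Backgrounds reached 76.9 fragments (FM) and 83.1 fragments (KO) near the start of Pdgfra and at most 48.2 at all peaks over 5 kb from that start, those of Kit and Kdr included.

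Within this stretch the weaker peaks differed between the lists. The KO list alone had peaks at 75150486 to 75150735, with 90 fragments and a fold of 1.40, and at 75151197 to 75151431, with 121 fragments and a fold of 1.57, over the start given for Pdgfra in the gene table. Both were weak calls, with -log10 q of 1.51 and 4.01, the first near the lowest deposited value of 1.30. The region at 75154875 to 75155286 was shared, with 168 fragments in FM (144 to 195) and 124 in KO (103 to 148). Its percentile was 49.97 in FM and 1.48 in KO, a difference of 48.5 percentile points. Upstream of the start, the region at 75148313 to 75149081 stood at percentile 44.7 in FM and 23.1 in KO. The neighbouring region at 75149747 to 75150252 had the opposite order, at 30.3 in FM and 52.3 in KO.

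The rest of Pdgfra, from 10 to 46 kb after its start, was denser in FM peaks. The FM list is also the longer one, with 205844 peaks in all against 139164 in the KO list. There were 13 FM peaks with 53 to 94 fragments at the summit and 6 KO peaks with 56 to 104. The strongest region only in the FM list lay at 75176789 to 75177175, with 94 fragments, a fold of 2.53 and -log10 q of 12.9. A second lay at 75174625 to 75174891, with 89 fragments, a fold of 2.34 and -log10 q of 10.4. The shared region at 75175840 to 75176235 lies between them and had 77 fragments in FM and 56 in KO. Local backgrounds of the peaks in this stretch had a median of 37.5 fragments in FM and 31.6 in KO, a difference that moves with the denser FM peaks and whose part in them was not tested.

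The stretch was not uniformly higher in the FM list. At 75185550 to 75186000 the FM peak had 84 fragments (67.0 to 104) and a fold of 2.15, and the KO peak 104 (85.0 to 126) and a fold of 3.12. This region stood at percentile 48.2 in FM and 82.1 in KO, and its KO peak was the second strongest KO peak of the gene by fold. In all, FM peaks covered 14.2% of the gene body of Pdgfra and KO peaks 7.82%. The same coverage over all genes was not computed, here or for Kit and Kdr below.

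Outside the gene, Pdgfra had 8 upstream and 13 downstream regions. The shared region 32.0 kb upstream, at 75118861 to 75119283, was alike in both lists, with 82 fragments in FM and 83 in KO. Downstream, the shared region at 75215726 to 75216305 had 112 fragments in FM and 95 in KO, and that at 75253392 to 75253729 had 96 and 75. Regions only in the FM list with -log10 q of at least 5 lay at 75205532 to 75205760, with 70 fragments, and at 75222509 to 75223325, with 75. The single KO counterpart of that strength lay at 75218666 to 75218870, with 67 fragments. Of the 4 regions in 1 list only upstream of the gene, 1 was only in the FM list and 3 only in the KO list. Over all regions 43.6% were only in FM and 16.0% only in KO, and the split by place was not computed over all genes.

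The shared region of Kit whose percentile differed most between the lists was a distal one upstream of the start. This region, 92.9 kb from the gene at 75481098 to 75482069, had 65 fragments in FM (50.2 to 82.8) and 139 in KO (117 to 164). The folds were 2.11 in FM and 4.16 in KO over backgrounds of 30.3 and 32.6 fragments. The pileup intervals do not overlap, but the region was named for its large difference, which favours such a gap. The pileups were also taken at separate summits, 75481944 in FM and 75481780 in KO. The percentile of the region was 45.0 in FM and 89.8 in KO. Beside it lay a peak only in the KO list at 75478511 to 75478781, with 85 fragments and -log10 q of 12.3, and a peak only in the FM list at 75477580 to 75478074, with 68 fragments and -log10 q of 6.74. These 3 regions lie at the edge of the 100 kb window.

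A second distal region, 36.2 kb upstream of Kit at 75538111 to 75538809, was alike in both lists, with 95 fragments in FM and 104 in KO. Its percentile was 85.9 in each list. A peak only in the KO list adjoined it at 75537574 to 75537975, with 70 fragments and -log10 q of 8.42. Between this region and the more distal one, 4 regions were only in the FM list, the strongest at 75518401 to 75518808 with 74 fragments and -log10 q of 9.65, and another at 75533840 to 75534048 with 62 fragments.

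Inside Kit, 5 regions were only in the FM list and 3 were shared. The strongest of those only in FM lay 49.3 kb after the start, at 75623666 to 75624527, with 85 fragments, a fold of 2.83 and -log10 q of 14.3, the highest -log10 q of any region only in FM at these genes. Another lay at 75603750 to 75603971, with 60 fragments. The shared region at 75596219 to 75596515 had 75 fragments in FM and 64 in KO. Near the end of the gene, peaks only in the FM list lay at 75655775 to 75656135 and at 75657257 to 75657464, with 55 and 58 fragments. FM peaks covered 4.66% of the gene body of Kit and KO peaks 2.33%.

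Downstream of Kit, 6 regions were only in the FM list and 2 were shared, at 77.9 and 81.8 kb beyond the gene. The one at 75734600 to 75734991 had 73 fragments in FM and 56 in KO, and stood at percentile 63.3 in FM and 33.4 in KO. The other, at 75738534 to 75739341, had 69 fragments in FM and 68 in KO. Over all regions 43.6% were only in the FM list, and shares inside or downstream of all genes were not computed.

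Kdr had few shared regions and many only in the FM list. Only 3 of its 27 FM peaks overlapped a KO peak (11.1%, interval 2.35 to 29.2), against 49.2% of all FM peaks. Of its 6 KO peaks 3 were shared (50%, interval 11.8 to 88.2), against 72.5% of all KO peaks. Apart from the start, no FM peak at Kdr had a -log10 q of 10 or more, so 1 of 27 (3.70%) did, against 24.1% of all FM peaks. But 24 of the 27 were only in the FM list, a class in which 6163 of 104472 peaks reached that level. The 24 had a median -log10 q of 4.34, against 4.35 over all such regions, and a median fold of 1.96 against 1.86. Of the 27 FM peaks, 17 had the genome-wide background under them.

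**Figure D3:**
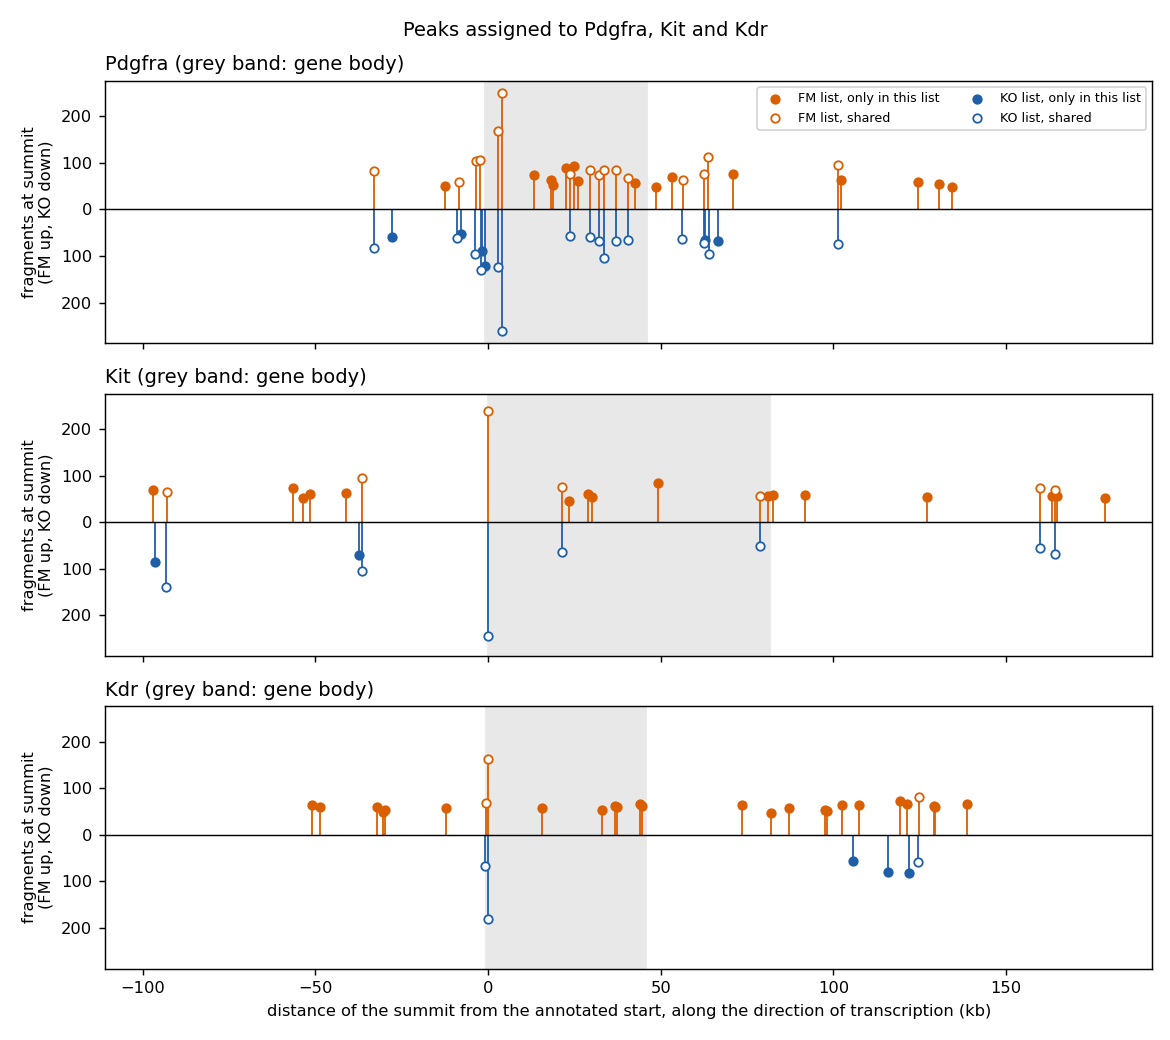
Fragments at the summit of each peak (y axis, FM upward in orange, KO downward in blue) against the distance of the summit from the annotated start in kb along the direction of transcription (x axis), for Pdgfra, Kit and Kdr, with filled points only in that list, open points shared and the gene body in grey. Kit and Kdr have their highest summits at the start, with 239 and 163 fragments in the FM list, and Pdgfra has its highest inside the gene, with 250.

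Kdr is transcribed toward lower coordinates, so its upstream side has the higher ones. Upstream it had 6 regions, all in the FM list only, with 50 to 65 fragments at the summit over the genome-wide background. The strongest by -log10 q lay at 76029221 to 76029866, with 65 fragments and -log10 q of 6.82, and another at 76026689 to 76027082, with 60 fragments. Inside the gene after its start another 6 regions were only in the FM list, with 54 to 66 fragments. A pair close to the end of the gene, at 75933887 to 75934114 and 75934264 to 75934840, had 62 and 66, and the region at 75941592 to 75941803 had 62. FM peaks covered 7.20% of the gene body and KO peaks 2.85%, all of it from the peak at the start. Over all regions 43.6% were only in the FM list. The split by place over all genes was not computed, so these counts are not read as a trait of Kdr.

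Beyond the end of Kdr the lists interleaved. Of 16 regions there, 12 were only in the FM list, 3 only in the KO list and 1 was shared. The peaks only in the KO list at 75862627 to 75862861 and 75856406 to 75856670 had 80 and 82 fragments and -log10 q of 12.5 and 8.93. By -log10 q and fold, the strongest regions only in the FM list on this side, at 75839528 to 75839948, 75871108 to 75871490 and 75904872 to 75905334, had 66, 63 and 63 fragments. By fragments the highest was that at 75859162 to 75859497, with 73 over a background of 39.5. The shared region at 75853559 to 75853968 had 81 fragments in FM and 59 in KO. The regions only in KO were thus fewer than those only in FM but, in fragments at the summit, 2 of the 3 exceeded every region only in FM at Kdr.

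Width and fold of the regions in 1 list only were close to those over all such regions. At the 3 genes those only in FM had a median width of 299 bp and a median fold of 1.96, against 281 bp and 1.86 over all such regions. Those only in KO had a median width of 239 bp and a median fold of 2.00, against 267 bp and 1.88. Of regions only in FM, 18 of 55 lay in a gene body, and of regions only in KO 1 of 11. The same shares over all regions were not computed, so these counts are not read as a trait of the genes. At -log10 q of at least 5 the counts were 17 only in FM and 5 only in KO, or 77.3% (54.6 to 92.2). Over all regions, 17.5% were only in FM and 6.11% only in KO at that strength, a share of 74.2%. At a -log10 q of at least 10 there were 3 only in FM, of which 2 at Pdgfra and 1 at Kit, and 2 only in KO, of which 1 at Kit and 1 at Kdr. That is 60% (14.7 to 94.7), against 65.0% over all genes.

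Ranked by fold, the shared regions had similar median places in both lists at Pdgfra and Kit, though less so at Kdr. Their median percentile was 45.9 in FM and 47.5 in KO at Pdgfra (16 regions), 63.3 and 62.4 at Kit (7 regions), and 27.0 and 41.5 at Kdr (3 regions). Of the 26 regions, 15 stood higher in FM and 11 in KO, and over all shared regions 49.7% stood higher in the KO list. Percentiles more than 20 points apart occurred in 10 of 26, against 34.4% of all shared regions. The 2 with the largest differences went opposite ways, the region after the start of Pdgfra toward FM and the distal region upstream of Kit toward KO.

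**Figure D4:**
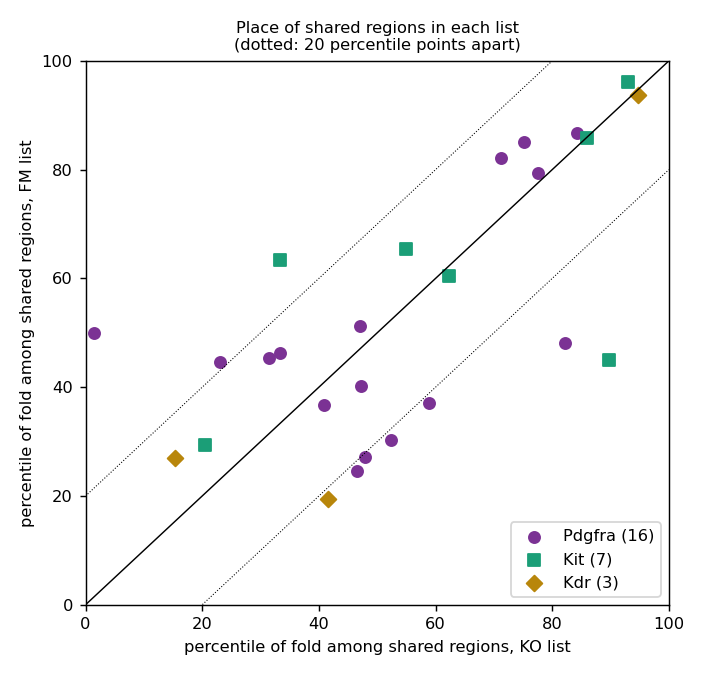
Percentile of the fold enrichment among 96962 shared regions in the FM list (y axis) against that in the KO list (x axis) for the 26 shared regions at Pdgfra (circles), Kit (squares) and Kdr (diamonds), with the line of equal places and dotted lines 20 points to each side. The starts of Kit and Kdr lie at the upper right, and 10 regions lie outside the dotted lines.

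Among ligands, related receptors and coreceptors of the same pathways, 17 genes with 325 regions were examined. Of these genes 13 had more regions only in FM, 2 had more only in KO and 2 had none in 1 list only. Of all 18638 genes with at least 1 region, 66.9% had more only in FM, 13.8% more only in KO and 19.2% equal numbers. Of the regions in 1 list only at the 17 genes, 79.0% were in FM (72.3 to 84.7), an interval that holds the 73.2% over all regions. The 5 related receptor genes all had more only in FM. Flt1, a receptor for vascular endothelial growth factor that also acts as a decoy, had 22 only in FM, 7 only in KO and 24 shared. Nrp2, a coreceptor, had 26, 5 and 18. Vegfa, a ligand of KDR, had 19, 4 and 22, and Pdgfa, a ligand of PDGFRA, had 12, 3 and 21. Kitl, which encodes the ligand of KIT, had 1 only in FM, 4 only in KO and 2 shared, and Pdgfc had 0, 1 and 1. Vegfc and Vegfd each had 1 shared region.

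Of the 18 flanking genes 16 had more regions only in FM and 2 had equal numbers, beside the 66.9% of all genes with more only in FM. Lnx1, a ubiquitin ligase gene, had 29 only in FM and 1 only in KO, and Chic2, between Lnx1 and Pdgfra, had 18 and 4. Among 21887 protein-coding genes, 97.2% had fewer regions only in FM than Kdr, 93.4% fewer than Kit and 92.7% fewer than Pdgfra. For regions only in KO, 79.4% of genes had fewer than Kdr, 68.3% fewer than Kit and 92.8% fewer than Pdgfra. Pdgfra thus stood about as high for regions only in KO as for those only in FM. Fewer shared regions than Pdgfra were found at 94.9% of genes, but fewer than Kdr at 51.1%. Long genes and wide gaps leave room for more regions, and the gaps here are 377 kb between Pdgfra and Kit and 276 kb between Kit and Kdr. Their part in these counts was not tested.

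The genes nearest in pattern were chosen by the Euclidean distance in log2(1 + number) of shared regions, regions only in FM and regions only in KO, over the 2 lists. For Pdgfra these were Map3k4, with the same 3 counts, Ccdc57 and Mpped1. For Kit they were Cpvl and Etnk1, with the same counts, and 4930571K23Rik, and 6 genes were at least as close as this last one. For Kdr no gene had the same counts, and the nearest were Col6a6, with 3 shared, 19 only in FM and 3 only in KO, Amer2 with 4, 19 and 3, and Myzap with 4, 25 and 2.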

How the data were processed

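Each group's 3 libraries are represented by 1 narrowPeak file with no header. The submitters' processing notes name bcl2fastq, Bowtie2, SAMtools, MACS2 and build mm10, without versions. The pooling of libraries, any shift of reads for Tn5 and any removal of reads are steps not given in the sources used here. For every peak the authors deposited the fold of its summit over local background, a ratio, together with a p-value and a q-value, both as -log10, and a whole-number score that was not used. The lowest deposited -log10 q was 1.30. Depth in reads is unknown.

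Rows with the same interval were collapsed to that of lowest p-value, and peaks of both lists on assembled chromosomes were merged into regions where they overlapped by at least 1 bp. Regions went to the nearest of 21887 RefSeq protein-coding genes of GRCm38.p6 within 100 kb. The gene table has no exons, so exon, intron and UTR are not given. Its start of Pdgfra, 75151322, precedes the start in the promoter table, 75152251, and of several starts the first listed was used. Genes run from 75151322 to 75198206 (Pdgfra, gene ID 18595), 75574987 to 75656722 (Kit, 16590) and 75932827 to 75979072 (Kdr, 16542). Just inside the window lay Kit regions at 96.7 and 96.9 kb and a Kdr region at 92.9 kb, and just outside lay regions at 102 kb from Kit and 100.1 kb from Kdr.

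Pileup and background at a summit were solved from fold, taken as (pileup + 1)/(background + 1), and the Poisson p-value, as MACS2 computes them. On chromosome 5 this gave whole pileups, within 0.02, in 99.97% of the FM list and 99.7% of the KO list. Peaks named are those within 1 kb of a gene end, the 3 of highest fold per gene and list, those only in 1 list with -log10 q of at least 5, and the shared regions whose percentiles differed most. Peaks named beyond that rule were chosen after their values were seen. Members and lists were chosen with earlier results of these data known. The overlap, assignment and pileup functions were tested on simulated data. Python 3.11.15, numpy 2.4.6, pandas 2.3.3, scipy 1.17.1 and matplotlib 3.10.9 were used.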

Additional observations from a re-analysis of the deposited data

Results flagged for a closer look

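Regions between the 3 genes that lay over 100 kb from any protein-coding gene were assigned to none of them, yet both lists held peaks there. They were part of the background over all regions and of the 200 kb setting. Between Pdgfra and Kit, which are 377 kb apart, there were 16 such regions, 10 only in the FM list, 1 only in the KO list and 5 shared. Between Kit and Kdr, 276 kb apart, there were 8, of which 6 were only in the FM list and 2 shared. The FM share of regions in 1 list only was 90.9% (58.7 to 99.8) in the first gap and 100% (54.1 to 100) in the second. Both intervals hold the 73.2% over all regions. The strongest region only in FM lay at 75811834 to 75812318, with a fold of 2.67 and -log10 q of 11.9. The region only in KO lay at 75314194 to 75314475, with a fold of 2.45 and -log10 q of 9.20. The shared region at 75830084 to 75830759 had a fold of 1.96 in FM and 2.78 in KO.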

How the results depend on the processing

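With 50000 peaks from each list the FM share of regions in 1 list only was 36.4% at the 3 genes, 25% at Kit (1 FM and 3 KO) and 0% at Kdr (0 FM and 2 KO, interval 0 to 84.2), while Pdgfra had 60%. Within 20 kb of the genes it was 100% at Kit and at Kdr (7 regions each, interval 59.0 to 100). This interval holds the 74.2% over all genes in that setting. At thresholds chosen after seeing the data, it was 63.6% (7 FM, 4 KO) for peaks in 1 list only past a -log10 q of 7, and 60% (3 FM, 2 KO) past 10, against 72.7% and 65.0% over all genes, so that the receptor genes lay below the share over all genes at both. On the printed strand alone the Kdr promoter held 2 of its 5 letter matches. With 50% overlap, -log10 q of at least 3 or 5, a 200 kb window, summit distance or peaks as the unit, shares stayed within the intervals given above, but where both lists were limited to peaks past a -log10 q of 5 the 3 genes (73.3%) were near all genes (72.7%). Ranking by q in place of fold put the Kit medians at percentile 49.9 in FM and 52.2 in KO. The Pdgfra medians were then 44.8 in FM and 39.4 in KO, in the opposite order to those by fold. At Kdr they were 27.9 and 34.7, closer together than by fold. No paired analysis was possible because each group has 1 peak list and no values per library, and for the same reason no replicate could be left out.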
